A study of Homo sapiens with 4 samples.

Results

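The genes described here are 9 direct transcriptional targets of the tumour suppressor p53, namely MDM2, PPM1D, CDKN1A, GADD45A, ZMAT3, SESN1, DDB2, XPC and RRM2B. They were taken by symbol from the authors' deposited table of 11597 genes, and all 9 were listed. BTG2 is a p53 target too and was left out, because it is the gene that was overexpressed. MOLM13, a human acute myeloid leukaemia line, was transduced with a lentivirus carrying the BTG2 cDNA (2 libraries, genotype labelled BTG2 OE) or with the empty vector (2 libraries, labelled WT). Both groups carried the same backbone, in which an EF1α promoter drives the insert beside puromycin resistance and ZsGreen, and both were harvested 3 days after transduction. The labels mention neither puromycin selection nor sorting, so the share of transduced cells is unknown, and 1 cell line was studied.

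The p53 protein binds a DNA element made of a repeated 10-base consensus and raises transcription of genes for cell cycle arrest, apoptosis, DNA repair and metabolic control. MDM2 ubiquitinates p53 and so closes a negative feedback loop on it. BTG2, an adaptor that brings the CCR4-NOT deadenylase to messenger RNA, is itself induced by p53, and the series' design asks what it does to mRNA stability.

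The authors' deposited table holds 1 comparison, with a mean normalized count, a log2 fold change of BTG2 over empty vector and its standard error (SE) per gene. No values of single libraries were analysed here. The depth of each library and the number of libraries that show a direction are therefore unknown. Genes whose adjusted p, as the authors computed it, was under 0.05 are described as called. Per the authors' deposited table, BTG2 stood 32.3-fold higher (95% interval 28.6 to 36.6) with the cDNA. All 9 fixed markers of myeloid leukaemia cells were listed there, with mean counts from 71.6 to 6277. Among these markers MPO (log2 fold change -1.14), LYZ (-0.39) and CEBPA (-0.26) fell and FLT3 (0.23) rose per the authors' deposited table, and the part of this shift in the values below was not tested. Only the call of FLT3 was lost at an adjusted p limit of 0.01 and with a null centred and scaled on the bulk of the test statistics. At a minimum of 1.5-fold only MPO was still called. Of 14 markers of other cell types 11 were not listed, and the 3 listed, KRT18, KRT8 and PECAM1, did not pass the test, with mean counts of 421, 58.5 and 65.7 per the authors' deposited table. In bulk RNA fewer cells of a type and less RNA per cell cannot be told apart.

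Sequences near transcription starts were searched for the p53 consensus, because the 9 genes are grouped by p53 binding. The RefSeq table of promoter windows (GRCh38.p14) gives 250 bases before to 50 bases after each start, and it held 14 windows for 7 of the 9 genes, all but GADD45A and RRM2B. Each window was compared with 2 copies of the 10-base p53 consensus, separated by 0 to 13 bases, and the placement with the fewest mismatches over the 20 bases was kept. The consensus reads the same on both strands. The best placements of DDB2 and MDM2, the only members called changed below, are shown with the 2 elements in capitals and the flanks in lower case. Each is on the plus strand, DDB2 at chr11:47214975-47215003 and MDM2 at chr12:68808898-68808967.
DDB2: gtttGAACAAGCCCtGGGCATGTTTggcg
MDM2: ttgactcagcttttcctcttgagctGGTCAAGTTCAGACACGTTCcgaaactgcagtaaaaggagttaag

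The DDB2 match had 0 mismatches with a spacer of 1 base. Over all 13060 windows of listed genes, 3 windows (0.0230%) held a match without mismatch. It lies at positions 5 to 25 after a start at 47214974, in an exon of 2 GENCODE release 29 transcripts. The MDM2 match had 2 mismatches and no spacer. It lies at positions -94 to -75 from the start at 68809017, in an intron of MDM2 in GENCODE, before the internal promoter that p53 is known to use. Matches with up to 2 mismatches and no spacer were found in 0.413% of all windows.

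In the other windows the match was looser. For SESN1 a placement with 2 mismatches needed a spacer of 11 bases, and 5.92% of all windows held a match with up to 2 mismatches at any spacer allowed. XPC and ZMAT3 had at best 3 mismatches, CDKN1A and PPM1D 4. The well-known p53 sites of CDKN1A lie farther upstream than this window reaches. Counted by gene, 3 of the 7 members with a window, 11 of 64 other p53 targets (17.2%) and 709 of 9026 listed genes (7.86%) had a match with up to 2 mismatches. Without a spacer the counts were 2 of 7, 7 of 64 (10.9%) and 53 of 9026 (0.587%). The 7 members held 14 windows and the 9026 genes 13060, and the counts by gene are not adjusted for the number of windows. A match describes letters in a window and is not evidence of binding in these cells.

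**Figure D1:**
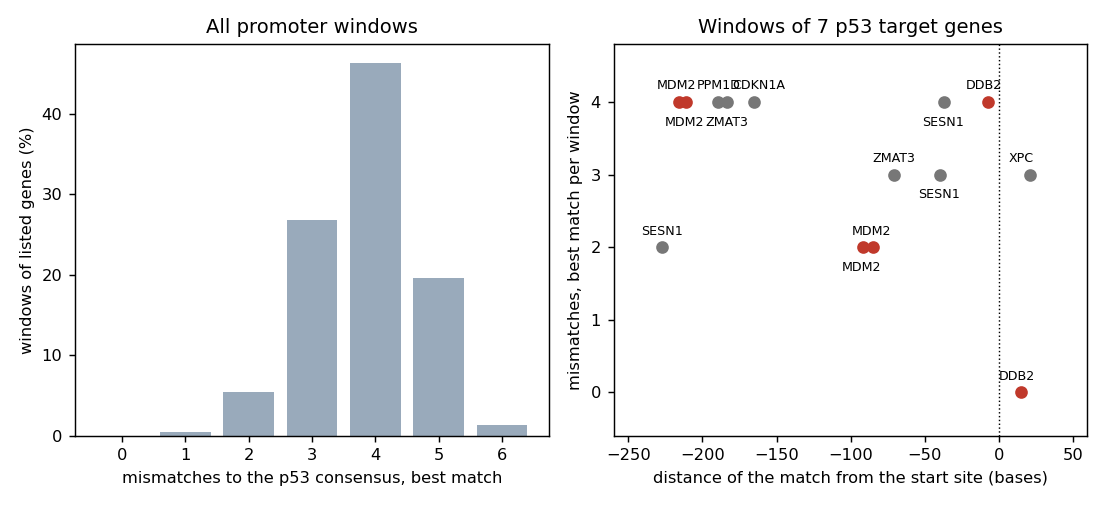
Left, the share of 13060 promoter windows (y, percent) by the mismatches of their best match to the p53 consensus (x, number over 20 bases). Right, the best match of each of 14 windows of 7 p53 target genes by distance from the start (x, bases) and mismatches (y), red for the genes called higher with BTG2. The DDB2 point stands alone at 0 mismatches and the MDM2 pair at 2.

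Of the 9 p53 target genes, MDM2 and DDB2 rose with BTG2 and 0 fell. The share called higher was 22.2% (2 of 9) against 3.64% of all 11597 genes, and the share called lower 0 against 4.47%. In either direction 8.11% of all genes were called. The 9 genes were chosen with earlier results of these data known, so these shares do not test for an excess. With the other listed p53 targets added, 5 of 83 genes were called higher (6.02%) and 3 lower (3.61%). The 9 log2 fold changes ran from -0.31 to 0.52 with a median of 0.06, and the median of all genes was 0.00. Of the 9 values 5 were positive and 4 negative. The genes are spread over chromosomes 1 (GADD45A), 3 (ZMAT3 and XPC), 6 (CDKN1A and SESN1), 8 (RRM2B), 11 (DDB2), 12 (MDM2) and 17 (PPM1D). The 9 values lay on both sides of 0, and both rises were below 1.5-fold.

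**Figure D2:**
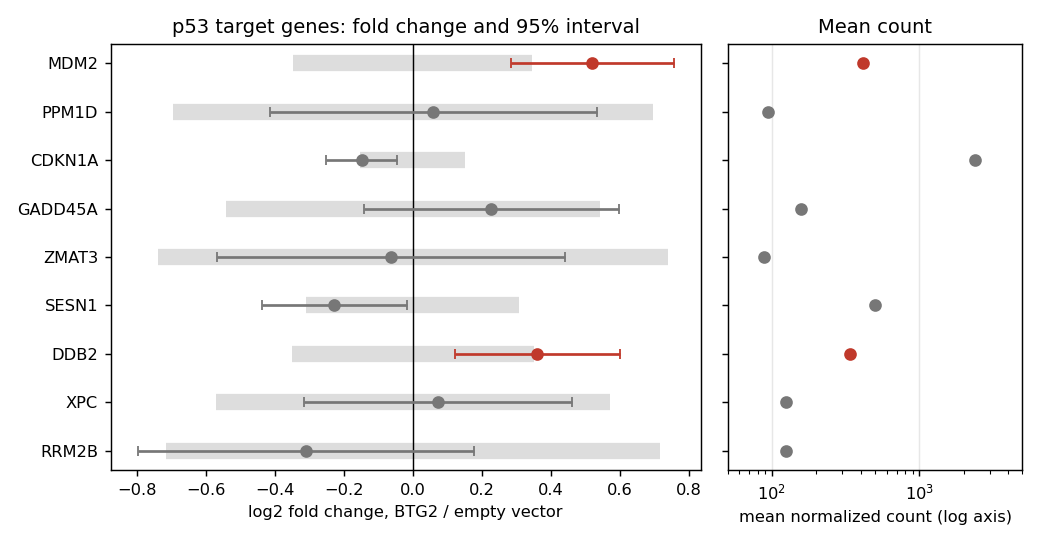
Left, log2 fold change (x, BTG2 over empty vector) of each p53 target gene (y) with its 95% interval from the authors' SE; the grey bar spans changes too small to be called at that gene's SE. Right, mean normalized count (x, log axis). MDM2 and DDB2, in red, lie at 0.52 and 0.36, and CDKN1A, with the highest mean count, has the narrowest interval.

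Among the genes that restrain p53, MDM2 rose and PPM1D did not pass the test. MDM2 (ENSG00000135679.27), on chromosome 12 from 68808176 to 68850686, plus strand, had a mean normalized count of 413 and a log2 fold change of 0.52 (SE 0.12, adjusted p = 0.000518) per the authors' deposited table. This is a rise of 43.4% (95% interval 21.7 to 69.0), and by p the gene ranks 364 of 11597. On the opposite strand MDM2 overlaps CPM, which had a log2 fold change of -0.19 (SE 0.22, adjusted p = 0.787) per the authors' deposited table. PPM1D, the phosphatase WIP1 that removes phosphates from p53 and its activating kinases, had a mean count of 94.0 and a log2 fold change of 0.06 (SE 0.24, adjusted p = 0.964) per the authors' deposited table. Its interval ran from -0.41 to 0.53, so a change of the size seen for MDM2 would not have been called for PPM1D, where the smallest callable size was 0.70.

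The arrest genes did not pass. CDKN1A codes for p21, the inhibitor of cyclin-dependent kinases through which p53 stops the cell cycle. The gene spans 36676460 to 36687339 of chromosome 6, plus strand, and had the highest mean count of the 9, 2395, which is not scaled to length. Its log2 fold change was -0.15 (SE 0.05, adjusted p = 0.0605) per the authors' deposited table, a difference of -9.75% with a 95% interval from -16.0 to -3.02. The interval contains no rise at all, unlike that of MDM2 (0.28 to 0.76). CDKN1A stood just outside the limit of 0.05. With p-values adjusted again over only those genes whose mean count reached the median, its adjusted p was 0.0362 and it was called lower. With log2 fold changes recentred on the median of those genes, its adjusted p was 0.172. With a null centred and scaled on the bulk of the test statistics it was 0.293, and CDKN1A was called in neither case. GADD45A, a stress sensor that binds p21 and PCNA, had a mean count of 158 and a log2 fold change of 0.23 (SE 0.19, adjusted p = 0.633) per the authors' deposited table. Its interval, -0.14 to 0.60, includes 0 and the value of MDM2.

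ZMAT3 and SESN1 act on RNA and on metabolism. ZMAT3, a zinc finger protein that binds RNA and alters splicing and stability of its targets, had the lowest mean count, 88.3, and a log2 fold change of -0.06 (SE 0.26, adjusted p = 0.964) per the authors' deposited table. A change in ZMAT3 had to reach 0.74 on the log2 scale to be called. SESN1, a sestrin that senses leucine and inhibits mTORC1, had a mean count of 497 and a log2 fold change of -0.23 (SE 0.11, p = 0.0350, adjusted p = 0.226) per the authors' deposited table. Its unadjusted 95% interval, -0.44 to -0.02, lay below 0, but the value did not pass over all genes. An unadjusted p under 0.05 was found for 17.6% of all genes.

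Of the 3 DNA repair genes only DDB2 passed. DDB2 (ENSG00000134574.12), the damage-recognition subunit that finds ultraviolet lesions in chromatin, lies on chromosome 11 from 47214465 to 47239240, plus strand. It had a mean count of 339 and a log2 fold change of 0.36 (SE 0.12, adjusted p = 0.0397) per the authors' deposited table, or a rise of 28.5% (95% interval 8.88 to 51.6). That call was close to the limit, since the smallest callable size at its SE was 0.35. With a null centred and scaled on the bulk of the test statistics, its adjusted p was 0.231 and the call was lost, whereas MDM2 was still called. XPC, which acts with DDB2 in the same recognition step, had a mean count of 125 and a log2 fold change of 0.07 (SE 0.20, adjusted p = 0.938) per the authors' deposited table. Its interval of -0.32 to 0.46 includes the value of DDB2. XPC overlaps LSM3 on the opposite strand, which had a mean count of 734 and a log2 fold change of -0.25 (SE 0.09, adjusted p = 0.0556) per the authors' deposited table. RRM2B, the p53-induced small subunit of ribonucleotide reductase, had a mean count of 125 and a log2 fold change of -0.31 (SE 0.25, adjusted p = 0.617) per the authors' deposited table. It was the most negative of the 9, with an interval from -0.80 to 0.18.

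**Figure D3:**
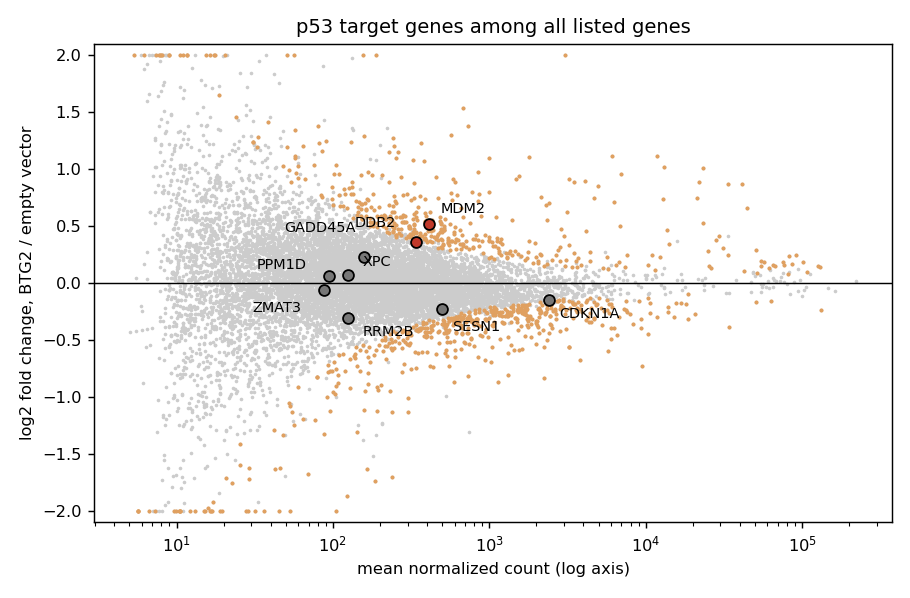
Log2 fold change (y, BTG2 over empty vector, 68 genes beyond 2 in size drawn at the edge) against mean normalized count (x, log axis) for 11597 genes, called genes in orange. The 9 p53 target genes are outlined; MDM2 (0.52) and DDB2 (0.36) are the 2 called members, and CDKN1A lies below 0 at the highest mean count of the 9.

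Of the regulators of p53 called higher, MDM4 rose the most. MDM4 is the MDM2 paralog that masks the p53 activation domain. It rose by 0.77 (SE 0.16, adjusted p = 7.95e-05) at a mean count of 245 per the authors' deposited table, and its difference from MDM2 was not tested. Its 1 promoter window held no p53 match with fewer than 5 mismatches, and sequence outside that window was not searched. Of 22 listed genes among 24 chosen as regulators of p53, 3 rose and 2 fell, with a median of 0.00. The share called was 22.7%, against 8.11% of all genes. Their range of mean counts was 31.0 to 64811 with a median of 232, against 151 for all genes.

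Ribosomal proteins that bind and inhibit MDM2 when ribosome assembly fails moved both ways. RPL5 fell, with a log2 fold change of -0.37 (SE 0.11, adjusted p = 0.0107), per the authors' deposited table. RPL11, its partner in the 5S particle, rose by 0.16 (SE 0.02) and RPL23 by 0.13 (SE 0.04) per the authors' deposited table. With a null centred and scaled on the bulk of the test statistics (the empirical null), the calls of RPL5 and RPL23 were lost. At an adjusted p limit of 0.01 the call of RPL5 was lost too. A minimum of 1.5-fold left none of RPL5, RPL11 and RPL23 called. Whether these genes share reads with processed pseudogenes was not tested. The p53 kinase HIPK2 was called lower with a fitted value of -8.72 (SE 1.49) at a mean count of 36.2 per the authors' deposited table. Leaving BTG2 aside, 42 called genes had values above 5 in size, HIPK2 among them, and a value of that size does not measure a fold. USP7, the deubiquitinase of MDM2 and p53, had a log2 fold change of 0.28 (SE 0.15, adjusted p = 0.315) per the authors' deposited table. The damage kinases ATM (0.10) and ATR (0.26) and the checkpoint kinases CHEK1 (-0.22) and CHEK2 (-0.19) did not pass per the authors' deposited table either.

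The other p53 targets were chosen from general knowledge with earlier results of these data known, and 74 of 84 were listed. Of the 74, 3 rose and 3 fell (8.11% called, against the same 8.11% of all genes), and 38 values were positive and 36 negative. Their median was 0.01, with a range of -0.88 to 0.91. Their called share is at the background.

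Of 19 listed apoptosis targets 1 fell and 0 rose, a called share of 5.26% against 8.11% of all genes. PMAIP1, the BH3-only protein NOXA, had a log2 fold change of -0.42 (SE 0.15, adjusted p = 0.0491) per the authors' deposited table. Its call was lost with log2 fold changes recentred on the median abundant gene, with the empirical null, at an adjusted p limit of 0.01 and at a minimum of 1.5-fold. BBC3, the BH3-only protein PUMA, stood at -0.05 (SE 0.15) and the pore-forming effector BAX at 0.08 (SE 0.07) per the authors' deposited table, and neither passed. The death receptor TNFRSF10B (0.23, adjusted p = 0.154), CDIP1 (-0.88, adjusted p = 0.214) and SIVA1 (-0.11, adjusted p = 0.474) did not pass either per the authors' deposited table. BAX was measured precisely, with an SE below that of MDM2.

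The metabolic and redox targets held most of the remaining calls, 2 higher and 2 lower of 18 listed, or 22.2% against 8.11% of all genes. PRKAB1, a regulatory subunit of the energy sensor AMPK, rose by 0.89 (SE 0.20, adjusted p = 0.000431) and NADSYN1, the last enzyme of NAD synthesis, by 0.52 (SE 0.17, adjusted p = 0.0306), per the authors' deposited table. The call of NADSYN1 was lost with the empirical null, at a limit of 0.01 and at a minimum of 1.5-fold. GPX1, a glutathione peroxidase, fell by 0.36 (SE 0.04) and DDIT4, an mTORC1 inhibitor, fell by 0.31 (SE 0.03) per the authors' deposited table, where their mean counts were 8327 and 9379. DDIT4 is also a target of the stress factor ATF4. SESN2, the paralog of SESN1, had a log2 fold change of -0.29 (SE 0.14, adjusted p = 0.219) per the authors' deposited table.

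Of 6 listed arrest targets 0 were called, against 8.11% of all genes. An unadjusted p under 0.05 was found for 0 of them, against 17.6% of all genes. The cyclin CCNG1, a sensitive p53 target, stood at -0.12 (SE 0.06, adjusted p = 0.345) at a mean count of 1716 per the authors' deposited table. PLK2 (0.91, SE 0.54), E2F7 (-0.38, SE 0.25) and PLK3 (0.44, SE 0.41) were measured at mean counts of 82.4 or less per the authors' deposited table. Of 5 repair targets 0 were called by the authors' adjusted p. In 2 of the 5 (40%, against 17.6% of all genes) the unadjusted p was under 0.05, ERCC5 (-0.28) and PCNA (0.38). ASCC3 (0.25) and REV3L (0.26) did not pass per the authors' deposited table. Among 26 targets with other roles (3.85% called) only RPS27L rose, by 0.23 (SE 0.07, adjusted p = 0.0266), per the authors' deposited table, and it may share reads with its close paralog RPS27. Its call was lost with the empirical null, at a limit of 0.01 and at a minimum of 1.5-fold. PHPT1 (0.16), PLXNB2 (0.15) and PTP4A1 (0.28) did not pass per the authors' deposited table.

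**Figure D4:**
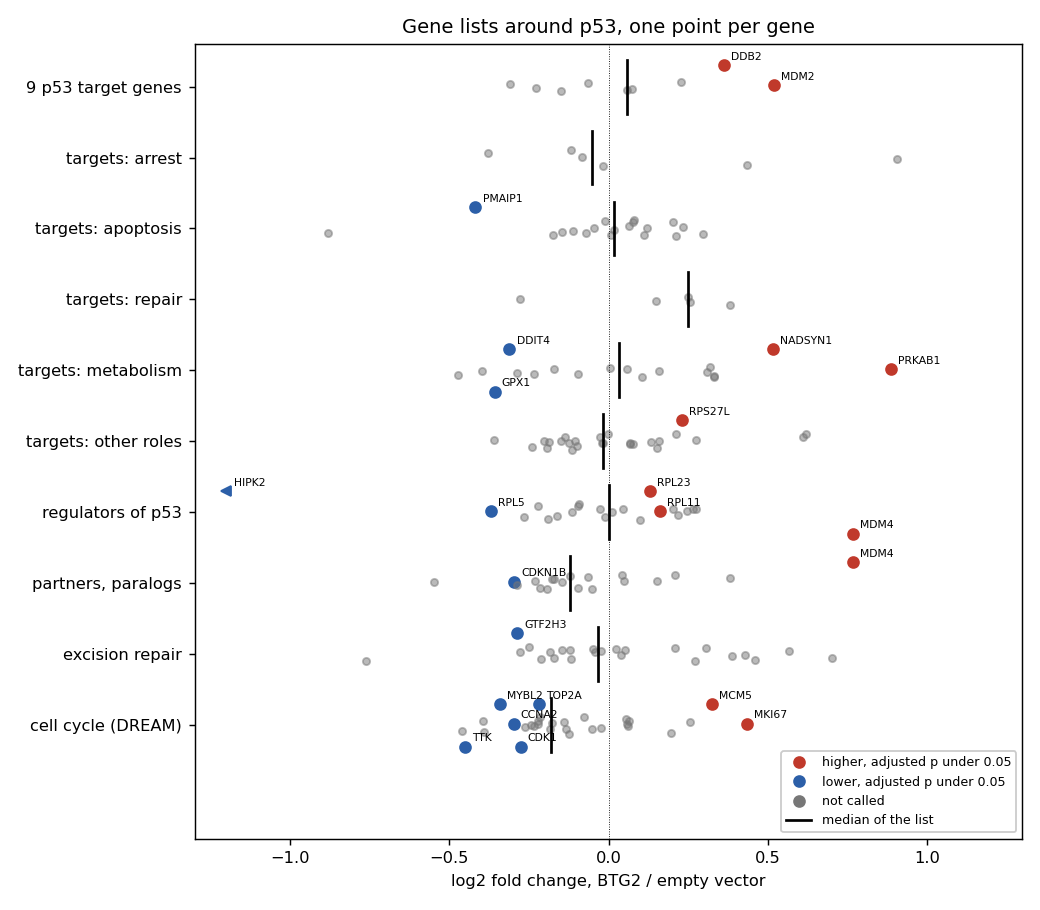
Log2 fold change (x, BTG2 over empty vector) of each listed gene in 10 gene lists around p53 (y), coloured by the authors' adjusted p, with the median as a bar; the HIPK2 triangle marks a value beyond the axis. The list medians lie near 0, between -0.18 for the cell cycle genes and 0.25 for the 5 repair targets.

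Binding partners and paralogs of the 9 genes gave 2 calls of 19 listed, MDM4 higher and CDKN1B lower, with a median of -0.12. The share called was 10.5%, against 8.11% of all genes. CDKN1B, the p27 inhibitor related to p21, had a log2 fold change of -0.30 (SE 0.10, adjusted p = 0.0356) per the authors' deposited table. Its call was lost with recentring, with the empirical null, at a limit of 0.01 and at a minimum of 1.5-fold. RRM1 and RRM2, the large and the S-phase small subunits of ribonucleotide reductase, stood at 0.04 (SE 0.08) and -0.19 (SE 0.08, adjusted p = 0.133) per the authors' deposited table. DDB1, the partner of DDB2, stood at -0.12 (SE 0.07, adjusted p = 0.417) per the authors' deposited table and was not called.

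Nucleotide excision repair, the pathway of DDB2 and XPC, had 1 call among 24 listed genes (4.17%, against 8.11% of all genes), and its median was -0.03. GTF2H3, a TFIIH subunit, had a log2 fold change of -0.29 (SE 0.09, adjusted p = 0.0137) per the authors' deposited table. Its call was lost with the empirical null, at a limit of 0.01 and at a minimum of 1.5-fold. GTF2H2 (-0.76, adjusted p = 0.0795), the endonuclease subunit ERCC1 (0.31, adjusted p = 0.142) and the single-strand binding subunit RPA3 (-0.18, adjusted p = 0.193) did not pass per the authors' deposited table.

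Cell cycle genes that p53 lowers indirectly, through p21 and the DREAM repressor, gave 7 calls. Of 30 listed genes 5 fell and 2 rose, 22 values were negative, and the median was -0.18 against 0.00 for all genes. The share called lower was 16.7% against 4.47% of all genes, and the share called higher 6.67% against 3.64%. The median mean count of this list was 256, against 151 for all genes. With p-values adjusted again over only genes at or above that all-gene median, 922 genes were called, against 940 of all genes. The shares over all genes are therefore below those of abundant genes. The mitotic kinase CDK1 (-0.28, SE 0.06), the transcription factor MYBL2 (-0.34, SE 0.07), TTK (-0.45, SE 0.13), the cyclin CCNA2 (-0.30, SE 0.09) and TOP2A (-0.22, SE 0.07) fell per the authors' deposited table. MKI67 (0.43, SE 0.12) and the helicase subunit MCM5 (0.32, SE 0.08) rose per the authors' deposited table. With the null taken from the bulk of the test statistics 3 genes of this list were called, and TTK, CCNA2, TOP2A and MKI67 were lost. At a limit of 0.01 TTK, CCNA2 and TOP2A were lost, and a minimum of 1.5-fold left 0 genes called. CDKN1A itself was not called (adjusted p = 0.0605 per the authors' deposited table), although its unadjusted 95% interval lay below 0. A link between CDKN1A and these values was not tested.

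The 9 genes differ widely in their 3′ UTRs, where many signals for deadenylation lie. Per gene the GENCODE release 29 transcript with the longest coding sequence was used, and the longest transcript where coding lengths tied, which can favour long 3′ UTRs. There the 3′ UTR of MDM2 has 10837 bases with 32 AUUUA motifs (2.95 per kb), and that of DDB2 has 391 bases with 0. The median over 10446 listed genes is 981 bases, so the 2 called members stand on opposite sides of it. RRM2B has the densest AUUUA content, 22 motifs in 3631 bases or 6.06 per kb, against a median of 1.53 per kb. CDKN1A has 3 motifs in 1537 bases, SESN1 1 in 1107, XPC 1 in 794, GADD45A 2 in 564, PPM1D 5 in 2728 and ZMAT3 14 in 7794. At least 1 AUUUA occurs in 8 of the 9 genes and in 67.5% of all. A Pumilio motif, UGUANAUA, occurs in MDM2, CDKN1A, ZMAT3 and RRM2B, and in 26.2% of all genes. These shares are not adjusted for length, and 6 of the 9 genes have a 3′ UTR longer than the median. Both motifs were counted on the transcript strand, with overlaps allowed, and which 3′ ends MOLM13 uses was not analysed here. The fold changes do not separate transcription from mRNA stability, and their link to these motifs was not tested.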

How the data were processed

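Poly(A) RNA of 4 libraries was compared, grouped from the sample titles. Per the submitters' processing notes minimap2 and hg38 were used. The protocol describes paired short reads and the series title long reads, and it is unclear which of them underlies the table. The program, normalization, annotation, filter and strand setting behind it are not stated in any source used here. A change common to all mRNAs may therefore not show in these values. The mean column is a signal, the deposited mean normalized count over the libraries. Fold changes and SEs are on the log2 scale, as deposited. The deposited test statistic is a score, the fold change over its SE (within 2.72e-07). The deposited p-value is its two-sided normal tail, and the deposited adjusted p equals a Benjamini-Hochberg adjustment over all listed genes within 1.48e-06.

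From these, 95% intervals were taken as normal intervals, and the smallest callable change as the SE times 2.88, the smallest absolute statistic called. Precision follows the mean count: with genes split at the median mean count, 151, the median SE was 0.13 in the upper part and 0.32 in the lower. Separate cultures are not stated for the replicates, so p-values measure only the spread between these libraries, which may be technical. The members and lists were chosen with earlier results of these data known. Besides the members and BTG2, each list's called genes were named, filled up to 4 by absolute statistic, with MDM4, BAX, BBC3, CCNG1, RRM1 and RRM2 always; the named regulators USP7, ATM, ATR, CHEK1 and CHEK2, SESN2, DDB1 and the overlapping CPM and LSM3 were chosen after their values were seen. Promoters came from RefSeq, and gene positions and 3′ UTRs from GENCODE release 29 on GRCh38 (hg38), matched by Ensembl identifier. Alternatives were adjusted p limits of 0.01 and 0.1, at least 1.5-fold change, recentring on the median abundant gene, abundant genes alone and an empirical null. A few genes are not reported here. The calling rule was tested on simulated data. Python 3.11.15, numpy 2.4.6, pandas 2.3.3, scipy 1.17.1 and matplotlib 3.10.9 were used.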

Additional observations from a re-analysis of the deposited data

How the results depend on the processing

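None of the 9 genes changed direction, but the alternatives could not test this. The adjusted p limits, the 1.5-fold minimum and abundant genes alone leave each log2 fold change as deposited. Among abundant genes alone ZMAT3, XPC, PPM1D and RRM2B were not tested, because their mean counts lay below the median. Recentring takes off the median of the abundant genes, -0.027, and the empirical null shifts the 9 values by less. Both shifts are smaller in size than the value of any of the 9 genes. MDM2 was called under each alternative except a minimum of 1.5-fold, which left 0 members higher. DDB2 was also lost at an adjusted p limit of 0.01 and with an empirical null, each of which left 1 member higher. CDKN1A was called lower, as 1 member, at a limit of 0.1 and among abundant genes alone. With the limit of 0.01, 622 genes were called in all, 1 other p53 target was higher, 4 DREAM genes, 0 excision repair genes and 1 partner or paralog were called. With a limit of 0.1, 2 excision repair genes were called. With at least 1.5-fold, 298 genes were called, 1 other target was higher and 0 lower, and 2 regulators, 0 DREAM genes, 0 excision repair genes and 1 partner or paralog were called. With the empirical null, 471 genes were called, 1 other target was higher, and 3 regulators, 3 DREAM genes, 0 excision repair genes and 1 partner or paralog were called. Recentring left 1 partner or paralog and turned the split over all genes from 422 higher and 518 lower to 500 and 433. The stricter limits call fewer genes by construction. Recentring shifts every log2 fold change by the same amount, abundant genes alone adjusts over fewer p-values, and the empirical null rescales every test statistic. The origin of the spread of those statistics was not tested. No paired analysis was possible because the table holds no values per library, and for the same reason no replicate was left out.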
